A study of Penicillium oxalicum with 18 samples.

Results

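The gene followed here is brlA, taken as locus PDE_00087, 1 of 9230 genes in the FPKM table of a Penicillium oxalicum transcriptome series. The member was chosen by its locus ID, and its values are given for all 18 libraries. The pairing of the name brlA with this locus rests on general knowledge. It was kept in earlier work on these data because the ratio of Δfbx23 to WT in glucose at this locus matched the brlA ratio the study gave. No other source used here ties the name to the locus, since the reference gene table at hand belongs to another strain and shares 0 IDs with the files. The Δfbx23 to WT difference in glucose, and each other difference of brlA that uses the Δfbx23 libraries in glucose, is therefore given as a description with no test. The WT libraries in glucose also entered the matched ratio, so tests of brlA that use them are not independent of this choice.

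BrlA is a C2H2 zinc finger transcription factor. In Aspergillus nidulans it opens the central pathway of conidiation, acting upstream of AbaA and WetA, and without it stalks form that bear no chains of conidia. It is likewise required for conidiation in Penicillium. Conidia of many of these fungi carry a dark melanin in their wall, so genes of pigment synthesis are usually read beside brlA.

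The series holds 3 strains in 2 media, with 3 libraries in each of 6 groups. WT is the parent strain 114-2. Δfbx23 has the gene for the F-box protein Fbx23 replaced by hph, a hygromycin resistance gene (Δfbx23::hph). Refbx23 is the complemented strain, in which fbx23 with its own upstream region and the ptrA marker was put back into the Δfbx23 strain. Its listed genotype is Δfbx23::hph fbx23::ptrA, and whether hph was kept was not checked here. Per the labels, all cultures grew 24 h at 30 °C in Vogel's medium with 2% glucose and then 18 h in liquid with 2% glucose (VMMG) or with 1% bran plus 1% microcrystalline cellulose (VMMC). The methods of the study give another length for the last step and another cellulose, and describe the sampling of WT and Δfbx23 mycelia only. How many transformants stand behind each mutant strain is not given in the sources used here. The study calls the libraries of WT and Δfbx23 biological triplicates, but neither it nor the labels say this of Refbx23 or describe separate cultures, so p-values measure only the spread between these libraries. The libraries are from bulk mycelium, in which fewer cells using a gene and less RNA of it per cell cannot be told apart.

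The libraries matched their labels for the deletion and for the medium, while these checks do not tell WT from Refbx23. The deleted gene, fbx23 (PDE_08467), read 0 in each Δfbx23 library (6 of 6) and 56.92 to 76.85 FPKM in the other 12. The cellobiohydrolase gene cbh1 (PDE_07945), a marker of growth on cellulose, lay between 0.18 and 3.79 FPKM in VMMG and between 533 and 4129.9 FPKM in VMMC. FPKM counts fragments per kilobase of transcript, scaled to the mapped total of a library. It is meant to let levels be set side by side between genes. The labels describe a tag-based library and the methods RNA-Seq, so how well that holds here is unknown. Genes above 0 numbered 8385 to 8648 per library, and the lowest correlation of a library with its own group was 0.970 to 0.994. Read totals are not in the table, so the counting error behind a single FPKM value is unknown.

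In VMMG, brlA was in the middle range of all genes in WT, near the floor in Δfbx23 and among the most abundant transcripts in Refbx23. WT libraries held 11.72, 15.38 and 35.2 FPKM of brlA, a mean of 20.8 ± 12.6 (SD, n = 3). Δfbx23 libraries held 0.73, 3.31 and 1.62 FPKM, a mean of 1.89 ± 1.31 (SD, n = 3). Refbx23 libraries held 282.08, 531.41 and 459.5 FPKM, a mean of 424.3 ± 128 (SD, n = 3). The 3 groups did not overlap, and every Refbx23 library was above every WT library, which in turn was above every Δfbx23 library. Within the libraries, brlA stood above 41.3% to 68.6% of all genes in WT, above 16.9% to 27.8% in Δfbx23 and above 94.8% to 97.2% in Refbx23.

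In VMMC, brlA was high in all 3 strains. WT libraries held 315.54, 285.55 and 243.09 FPKM, a mean of 281.4 ± 36.4 (SD, n = 3). Δfbx23 libraries held 165.44, 214.42 and 262.97 FPKM, a mean of 214.3 ± 48.8 (SD, n = 3). Refbx23 libraries held 205.29, 209.72 and 211.23 FPKM, a mean of 208.7 ± 3.09 (SD, n = 3). With median-ratio scaling of the libraries that mean was 195.6 FPKM, a shift larger than its SD. The Δfbx23 libraries overlapped both other strains, whereas all Refbx23 libraries lay below the lowest WT library. brlA stood above 91.8% to 95.6% of all genes in these 9 libraries.

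**Figure D1:**
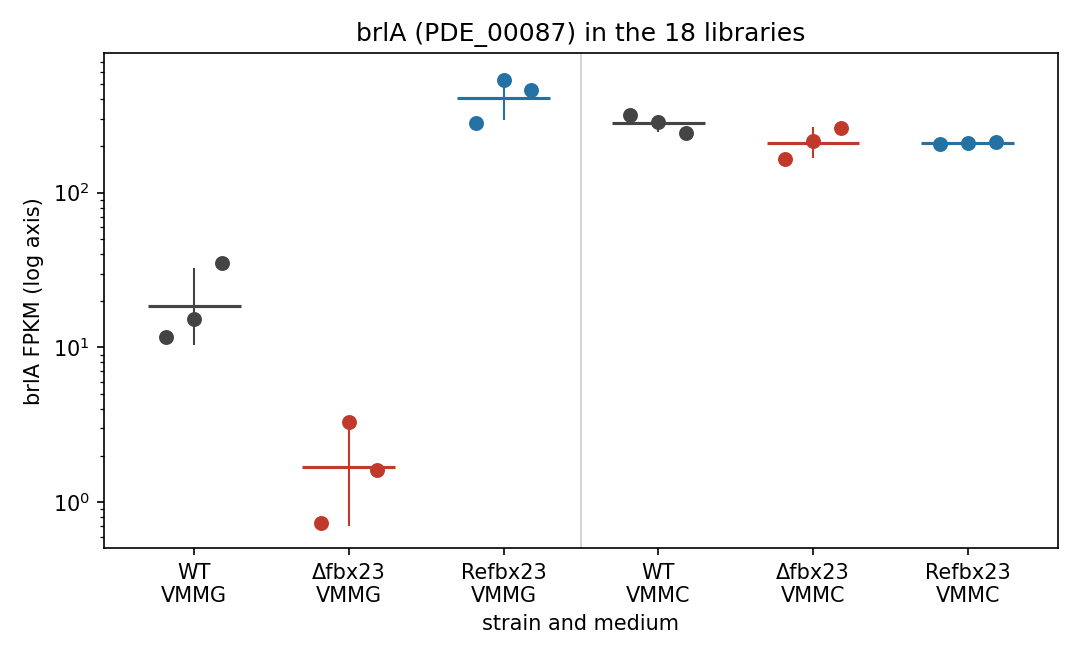
brlA FPKM (log axis) in each library, by strain and medium. Each point is 1 library, the horizontal line is the group mean taken on log2(FPKM + 1) and the vertical line spans 1 SD on that scale. The VMMC groups lie together between 165.44 and 315.54 FPKM, while the VMMG groups run from 0.73 FPKM in Δfbx23 to 531.41 FPKM in Refbx23.

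Ordered by mean, the groups ran from Refbx23 in VMMG through WT, Δfbx23 and Refbx23 in VMMC to WT in VMMG and Δfbx23 in VMMG. The upper 4 formed a continuous run in which neighbours overlapped, with ratios of 1.51, 1.31 and 1.03 between successive means. Below them, WT in VMMG was lower by a ratio of 10.1 and Δfbx23 in VMMG lower again by a ratio of 11.0, and neither step held overlapping libraries. The highest library held 728 times the brlA of the lowest, and the highest group mean 225 times the lowest.

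The spread of brlA within a group differed widely. The coefficient of variation was 60.8% in WT and 69.5% in Δfbx23 in VMMG, against 1.48% in Refbx23 in VMMC. In WT in VMMG, replicate 3 held 2.60 times the mean brlA of replicates 1 and 2. Among 7650 genes compared in those libraries the median ratio was 0.94, and 147 other genes (1.92%) had a ratio at least as high as brlA. The 6 pigment genes described below were also higher in that library, by ratios of 1.75 to 2.59.

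The first comparison asked how brlA differed between strains with glucose. In Δfbx23, brlA stood at 9.09% of the WT mean, a log2 difference of -2.86 ± 0.48 (SE) on log2(FPKM + 1). This is the contrast by which the locus was kept, so it carries no test. A gene was called changed when it differed at least 2-fold with an adjusted p under 0.05, by limma with Benjamini-Hochberg adjustment over all genes tested. By that rule 11.8% of 7691 genes were called in this contrast, and nothing is read from brlA's place among them.

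In the complemented strain brlA was far above the parent, while fbx23 itself was at 68.4 ± 5.71 FPKM in Refbx23 and 73.3 ± 3.39 FPKM in WT (SD, n = 3). brlA rose 20.4-fold from the WT mean to the Refbx23 mean in VMMG. The log2 difference was 4.39 ± 0.42 (SE), with an adjusted p of 0.000614 by limma. In that comparison 11.5% of 7795 genes were called higher, and 27 genes (0.346%) had a larger log2 difference than brlA. An exact two-sided permutation test of mean FPKM gave p = 0.1, the smallest p that 3 libraries against 3 allow. The WT libraries here were part of the ratio by which the locus was kept, so these tests are not independent of that choice. Against Δfbx23, the mean of brlA in Refbx23 was 225 times as high, with a log2 difference of 7.25 ± 0.37 (SE), given with no test because the Δfbx23 values were part of the choice of the locus. There 13.4% of 7782 genes were called higher, and nothing is read from that share for brlA.

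Between strains in VMMC, the differences of brlA were small. brlA in Δfbx23 was at 76.1% of WT, a log2 difference of -0.41 ± 0.17 (SE). The 95% interval, not adjusted over genes, was -0.81 to -0.003, and the adjusted p was 0.0848 by limma. The difference was not called, beside 14.4% of 8006 genes that were, and the exact permutation test gave p = 0.2. Without Δfbx23 replicate 3 the adjusted p was 0.0258, still under the 2-fold limit. brlA in Refbx23 was at 74.2% of WT, a log2 difference of -0.42 ± 0.10 (SE) with an adjusted p of 0.00543 by limma, and the groups did not overlap (exact permutation p = 0.1). This difference passed on p but was under 2-fold and so was not called, beside 12.7% of 8012 genes called. With the spread of all 18 libraries in 1 fit its adjusted p was 0.344.

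In VMMC, brlA in Refbx23 and Δfbx23 differed by less than the spread between libraries. The Refbx23 mean was 97.4% of the Δfbx23 mean. The log2 difference was -0.01 ± 0.15 (SE), with a 95% interval of -0.37 to 0.34, an adjusted p of 0.969 by limma and an exact permutation p of 0.7. Its sign turned to 0.15 without Δfbx23 replicate 3. Among all genes, 3.12% of 7894 were called in this comparison, the lowest share of the 9 comparisons.

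The next comparison asked how brlA answered to the medium within each strain. In WT, brlA rose 13.6-fold from VMMG to VMMC, a log2 difference of 3.84 ± 0.37 (SE) with an adjusted p of 9.66e-05 by limma. The medium changed many genes, and 25.7% of 8053 were called higher in VMMC, with 237 (2.94%) moving further than brlA. The median log2 difference of all genes was 0.13 in this comparison, so brlA moved far beyond the common shift. The WT values in VMMG were part of the choice of the locus too, so this test is not independent of it. In Δfbx23, the VMMC mean of brlA was 114 times the VMMG mean, a log2 difference of 6.30 ± 0.34 (SE) beside a median of 0.18 over all genes. It is given with no test, as the VMMG values were part of the choice of the locus, and nothing is read from the 20.9% of 7911 genes called higher there.

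In Refbx23 the direction was the opposite. Every VMMC library was below every VMMG library, and the VMMC mean was 49.2% of the VMMG mean. On log2(FPKM + 1) the difference was -0.97 ± 0.21 (SE), with an adjusted p of 0.00622 by limma and a 95% interval of -1.48 to -0.46, just under the 2-fold limit. It was called with median-ratio scaling (-1.07) and without Refbx23 VMMG replicate 1 (-1.24). In this strain 7.68% of 7958 genes were called lower in VMMC. The exact permutation test of the medium gave p = 0.1, its smallest value, in WT and in Refbx23.

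The medium effect on brlA differed between Refbx23 and WT by an interaction test, in which a gene was called on an adjusted p under 0.05 alone. The effect in Refbx23 was below that in WT by a log2 difference of -4.81 ± 0.47 (SE), with an adjusted p of 1.12e-05 by limma. Such calls were common, at 30.8% of 8072 genes lower, and 39 genes (0.483%) lay further out than brlA. This test also uses the WT values in VMMG, which were part of the choice of the locus. The other differences of medium effects contain the Δfbx23 values in VMMG and are given with no test. Refbx23 was below Δfbx23 by -7.27 ± 0.44 (SE), and Δfbx23 was above WT by 2.46 ± 0.55 (SE). Nothing is read for brlA from the 27.9% of genes called lower in the former and the 21.1% called higher in the latter.

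**Figure D2:**
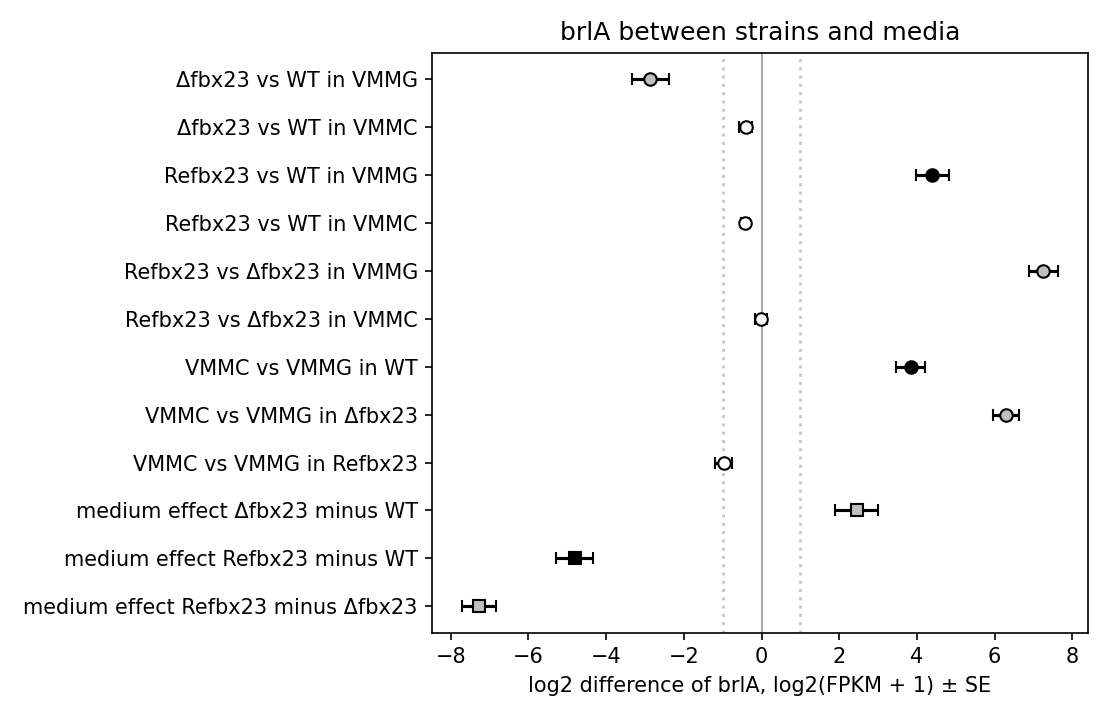
Log2 difference of brlA on log2(FPKM + 1) with its SE for 9 comparisons of 3 libraries against 3 (circles) and 3 differences of medium effects (squares). Black points were called and open points were not, grey points use the Δfbx23 libraries in VMMG and have no test, and the dotted lines mark 2-fold. Differences ran from -7.27 to 7.25, and the strain differences in VMMC all lay within -0.42 to -0.01.

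Genes of conidial pigment were counted next to brlA. The 6 genes are the P. oxalicum homologues, named by the study, of the DHN-melanin pathway of A. fumigatus. In that fungus, the polyketide synthase makes the first precursor and the laccase acts late. albA (PDE_09491) encodes the polyketide synthase and abrB (PDE_09492) the laccase. arpA (PDE_04496) and arpB (PDE_04495) are annotated as tetrahydroxynaphthalene reductases, and aygA (PDE_09452) and abrA (PDE_09453) as pigment biosynthesis proteins. The study took these 6 and the clusters below for their lower levels in Δfbx23 in VMMG, so their counts there are no independent evidence of direction. Of the pigment genes, 5 of 6 were called lower there, beside 7.00% of all genes, and the other was abrA.

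The pigment genes were higher in Refbx23 together with brlA. In VMMG, abrB libraries held 54.06, 73.81 and 165.75 FPKM in WT when ordered from lowest to highest, and 625.59, 832.22 and 1015.6 FPKM in Refbx23. The abrB groups did not overlap, and the log2 difference was 3.20, called by limma. albA held a mean of 22.9 ± 12.5 FPKM in WT and 197.5 ± 42.7 FPKM in Refbx23 (SD, n = 3), a called log2 difference of 3.16. All 6 pigment genes were called higher in Refbx23, beside 11.5% of all genes. Their median log2 difference was 2.58, against 0.01 over all genes tested. The difference of brlA, at 4.39, was larger than that of any of the 6.

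Between media, the pigment genes rose with brlA in WT and did not rise in Refbx23. In WT, 6 of 6 were called higher in VMMC, beside 25.7% of all genes. Their median log2 difference was 2.07, against 0.13 over all genes. abrB went from a mean of 97.9 ± 59.6 to 370.6 ± 52.5 FPKM (SD, n = 3), a log2 difference of 2.06. In Refbx23, 0 of 6 were called higher and 2 were called lower, beside 13.7% higher and 7.68% lower among all genes. The median was -0.69, against 0.06 over all genes. The 2 called lower were abrB, with a log2 difference of -1.40, and albA, with -1.08. The call of albA was lost without Refbx23 VMMG replicate 2 (-0.99) or replicate 3 (-0.97). In VMMC none of the 6 was called between strains by limma. Medians were -0.01 in Δfbx23 against WT, -0.19 in Refbx23 against WT and -0.13 in Refbx23 against Δfbx23. Of all genes, 14.4%, 12.7% and 3.12% were called in that order.

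Secondary metabolism clusters 1, 2, 26 and 28 were counted because the study names them as silent in a brlA deletion mutant, for which no libraries were analysed here. Their backbone genes encode nonribosomal peptide synthetases (NRPS), dimethylallyl tryptophan synthases (DMAT) and polyketide synthases (PKS), the enzymes that build the core of a fungal metabolite. Cluster 2 is related to the roquefortine and meleagrin cluster of P. chrysogenum. The range the study prints for cluster 28 starts at a lower number, and its start was read here as PDE_09999. In Δfbx23 against WT in VMMG the counts of lower genes were 23 of 27 in cluster 1, 10 of 11 in cluster 2, 14 of 16 in cluster 26 and 11 of 11 in cluster 28, again on the contrast the study chose them by. Of all genes, 7.00% were called lower in that contrast. Without Δfbx23 VMMG replicate 3 the count in cluster 26 was 9.

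In Refbx23 against WT in VMMG, the clusters were higher together with brlA. Higher genes numbered 24 of 27 tested in cluster 1, 10 of 11 in cluster 2, 16 of 17 in cluster 26 and 10 of 11 in cluster 28, beside 11.5% of all genes. Median log2 differences were 2.33, 2.66, 4.01 and 3.04 in that order. The DMAT gene PDE_01066 of cluster 2 held a mean of 79.9 ± 43.2 FPKM in WT and 457.6 ± 55.8 FPKM in Refbx23 (SD, n = 3). The PKS gene PDE_09237 of cluster 26 held 2.73, 4.73 and 15.45 FPKM in WT from lowest to highest, and 94.91, 126.4 and 218.97 FPKM in Refbx23. In WT in VMMG this PKS gene was lowest in replicate 3, at 0.271 times the mean of the others, the library in which brlA was highest.

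In VMMC, clusters 1 and 26 parted from brlA. While brlA was not called between strains there, cluster 1 had 24 of 27 genes higher in Δfbx23 than in WT (median log2 difference 1.99) and cluster 26 had 16 of 17 higher (median 3.16), beside 6.05% of all genes called higher and a median of -0.03. In Refbx23 against WT, which shares the WT libraries, the counts were 24 of 27 (median 1.81) and 16 of 17 (median 3.18), beside 5.63% and a median of -0.01. The PKS gene PDE_09237 held 38.02 to 40.88 FPKM in WT, 166.15 to 455.78 FPKM in Δfbx23 and 343.78 to 410.42 FPKM in Refbx23, with no overlap between WT and either other strain. The DMAT gene PDE_00807 of cluster 1 held 49.08 to 52.29, 173.88 to 227.84 and 157.3 to 183.69 FPKM in the same order. Cluster 2 had 0 genes higher by limma, and PDE_01075 and PDE_01076 were called lower in each of these comparisons, beside 8.34% of all genes lower for Δfbx23 and 7.09% for Refbx23. Cluster 28 had PDE_10000 lower in each, and PDE_10007 higher in Refbx23. In Refbx23 against Δfbx23, the 5 lists together held 1 called gene, a cluster 28 gene that was lower, beside 1.67% of all genes.

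That gene was PDE_10000 of cluster 28, singled out after its values were seen. It was listed at 0 in all 6 Refbx23 libraries, while brlA was at 205.29 FPKM or more in each of them. In WT it held 2.16 to 3.8 FPKM in VMMG and 29.14 to 54.81 FPKM in VMMC, and in Δfbx23 it held 0.26 to 1.03 and 3.13 to 14.13 FPKM. It was also the 1 cluster 28 gene called lower in Refbx23 than in WT in VMMG, beside 6.80% of all genes.

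Between media, the clusters also divided. In WT, where brlA rose, the counts of genes higher in VMMC were 11 of 12 in cluster 2, 14 of 17 in cluster 26 and 9 of 11 in cluster 28, beside 25.7% of all genes. The count in cluster 26 was 7 without WT VMMC replicate 1, 8 without WT VMMC replicate 3 and 8 without WT VMMG replicate 2. Cluster 1 differed from them, with PDE_00788 and PDE_00813 higher and 8 lower of 27, beside 15.5% of all genes lower, and with 5 lower without WT VMMG replicate 3. In Refbx23, where the log2(FPKM + 1) difference of brlA was -0.97, lower genes numbered 18 of 27 in cluster 1, 4 of 12 in cluster 2 and 7 of 10 in cluster 28, beside 7.68% of all genes. The cluster 28 count was 4 without Refbx23 VMMG replicate 2. Cluster 1 also had PDE_00814 higher. Cluster 26 had 5 genes higher of 17 in that strain (PDE_09227, PDE_09228, PDE_09234, PDE_09235 and the PKS gene PDE_09237), beside 13.7% of all genes, and PDE_09243 lower. PDE_09228 had the largest log2 difference, 6.55 ± 0.91 (SE), from 2.98, 11.09 and 68.96 FPKM in VMMG to 1375.52 FPKM or more in VMMC. The cluster 26 count was 12 higher without Refbx23 VMMG replicate 1. In Δfbx23, all 6 pigment genes and 25 of 27, 11 of 11, 17 of 17 and 11 of 11 genes of clusters 1, 2, 26 and 28 were higher in VMMC, beside 20.9% of all genes. The lists were taken by the study for their low VMMG levels in this strain, so these counts are no independent evidence either.

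**Figure D3:**
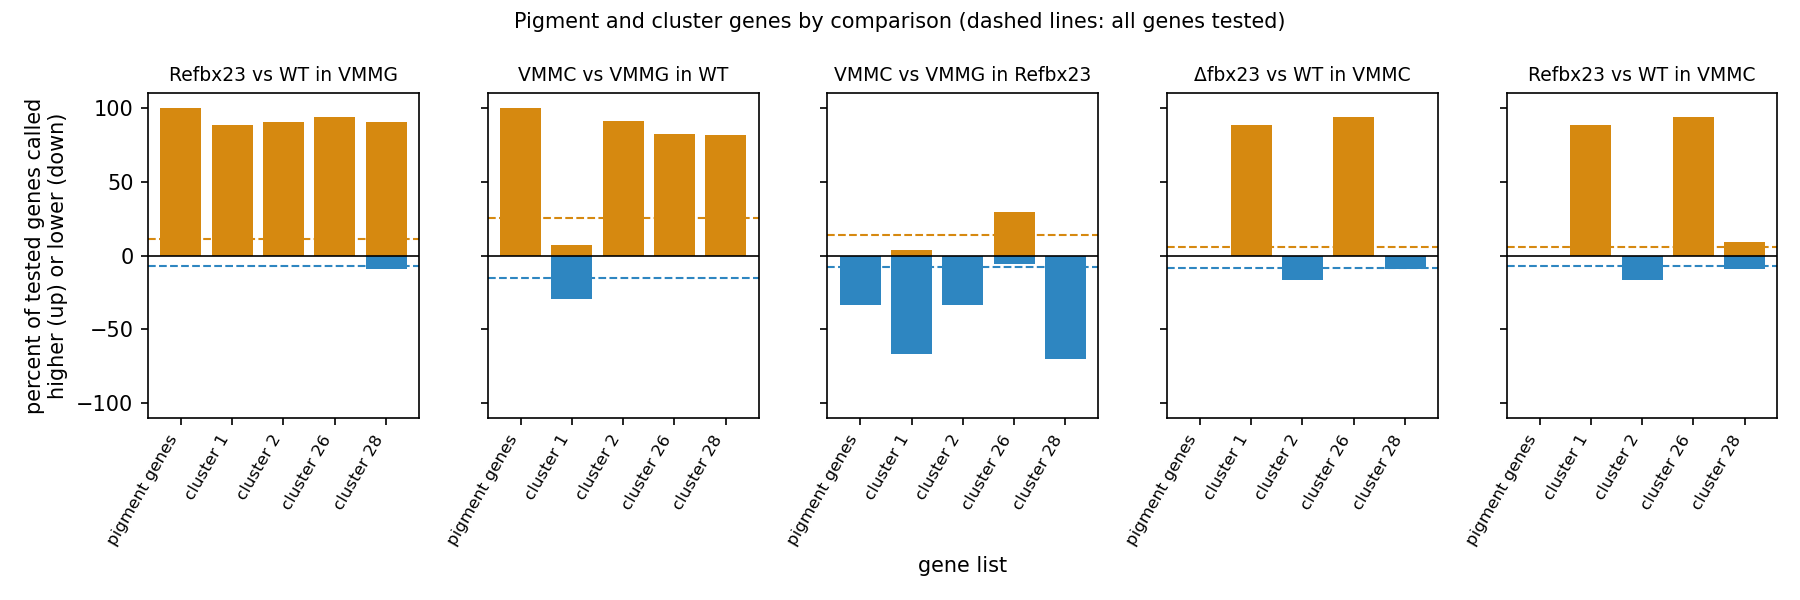
Percent of tested genes called higher (orange, upward) or lower (blue, downward) among the 6 pigment genes and clusters 1, 2, 26 and 28 in 5 comparisons, with dashed lines at the percent of all genes called in each direction. In Refbx23 against WT in VMMG each list was mostly higher, and in VMMC clusters 1 and 26 alone of the 5 lists were mostly higher than in WT.

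Loci with neighbouring numbers were compared with brlA. Of the 10 loci within 5 numbers on each side, 9 had rows, and PDE_00088 was not analysed here. PDE_00086 and PDE_00090 had group means of 0.21 FPKM or less, and PDE_00089 of 1.90 FPKM or less. At these low levels PDE_00089 had its highest mean in Refbx23 in VMMG (1.90 FPKM) and its lowest in Δfbx23 in VMMG (0.090 FPKM), as brlA did. PDE_00083, PDE_00084, PDE_00085 and PDE_00091 stayed between group means of 15.1 and 62.0 FPKM. PDE_00082 was low in Δfbx23 in VMMG, at 0.35 to 2.08 FPKM, like brlA. It was at 33.3 to 45.56 FPKM in WT and 33.82 to 62.85 FPKM in Refbx23 in VMMG, which overlapped, unlike brlA. In VMMC it held 55.21 to 58.02 FPKM in WT, 126.27 to 151.26 FPKM in Δfbx23 and 145.62 to 156.13 FPKM in Refbx23, with called log2 differences from WT of 1.28 and 1.40. PDE_00092 had its highest mean in Δfbx23 in both media, at 107.6 FPKM in VMMG and 169.7 FPKM in VMMC. In VMMG its Δfbx23 libraries (72.81 to 165.05 FPKM) overlapped those of Refbx23 (58.32 to 115.12 FPKM), while in VMMC they did not.

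**Figure D4:**
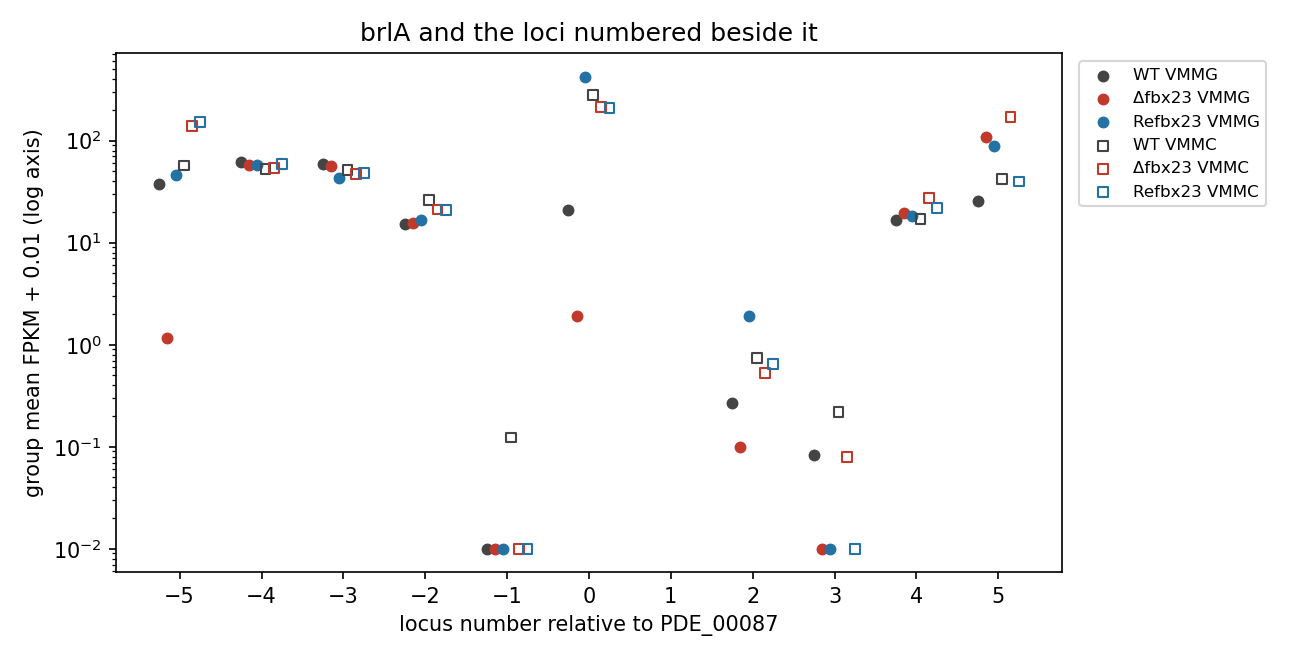
Group mean FPKM (log axis, with 0.01 added so that 0 can be drawn) of brlA at position 0 and of the loci within 5 numbers on each side, for the 6 groups. Filled circles are VMMG and open squares VMMC. Among these loci brlA has the widest span in FPKM, from 1.89 to 424.3.

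To find genes with a like pattern, Pearson's r with brlA on log2(FPKM + 1) was computed over the 18 libraries for the 8055 other genes whose overall mean reached 1 FPKM. The 18 points fall into 6 groups that share strain and medium, so r mostly describes the order of the groups. The median r was 0.22. An r of 0.9 or more was found for 282 genes (3.50%) and an r of -0.9 or less for 68 genes (0.844%). All 6 pigment genes were among the former, with r from 0.956 to 0.975. Cluster 2 had 10 of 12 compared genes there and cluster 28 had 10 of 11, against 6 of 27 in cluster 1 and 1 of 17 in cluster 26. The study took these lists for low levels in Δfbx23 in VMMG, the lowest group of brlA. Their high r is therefore no independent evidence of likeness to brlA.

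The 10 genes most like brlA were PDE_09551 (r = 0.994), PDE_08972, PDE_04326, PDE_03882, PDE_02138, PDE_01556, PDE_02139, PDE_04403, PDE_03044 and PDE_05524 (r = 0.988). All 10 had their lowest group mean in Δfbx23 in VMMG, and 9 had their highest in Refbx23 in VMMG. Group means of PDE_09551 were 5.46, 0.227 and 57.5 FPKM in WT, Δfbx23 and Refbx23 in VMMG and 41.5, 31.3 and 35.6 FPKM in VMMC, with the same highest and lowest group as brlA. PDE_03044 was the most abundant of them and the exception, with its highest mean in WT in VMMC (5429.4 FPKM). It held 156.6 FPKM in Δfbx23 in VMMG and 4949.2 FPKM in Refbx23 in VMMG. PDE_02138 and PDE_02139 lie side by side by number, within the range of secondary metabolism cluster 8. By rank correlation 4 of these 10 were among the top 10 and the lowest placed was at 311.

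The 5 genes least like brlA were PDE_08856 (r = -0.971), PDE_07094, PDE_02023, PDE_04915 and PDE_00737 (r = -0.957). All 5 had their highest mean in Δfbx23 in VMMG. PDE_04915 held 87.0 FPKM in WT, 439.8 FPKM in Δfbx23 and 4.01 FPKM in Refbx23 in VMMG, and 4.10 to 9.15 FPKM as group means in VMMC.

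**Figure D5:**
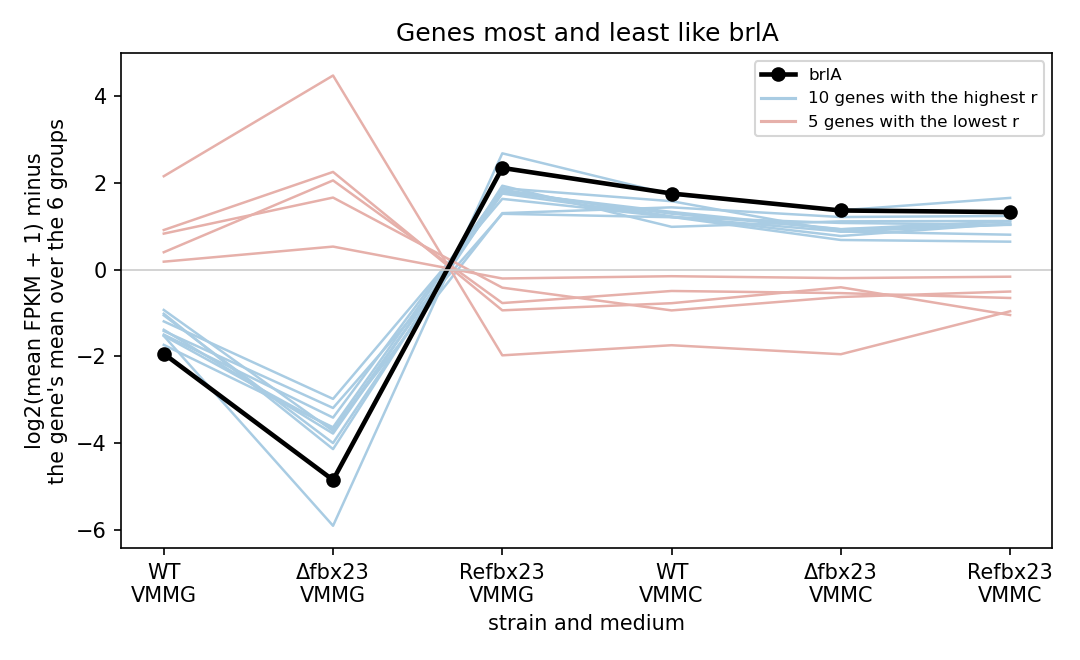
Group means as log2(mean FPKM + 1) less each gene's mean over the 6 groups, for brlA (black), the 10 genes with the highest r (blue) and the 5 with the lowest r (pink). The blue lines dip in Δfbx23 in VMMG with brlA and the pink lines peak there, which is the order by which both sets were picked.

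Group order can be removed by subtracting each gene's group mean, which leaves the variation among libraries of the same group. The 5 genes most like brlA on these deviations were PDE_01068 (r = 0.960), PDE_10009 (r = 0.956), PDE_01064 (r = 0.951), PDE_09999 (r = 0.944) and PDE_10007 (r = 0.943), against a median of -0.14 over all genes. PDE_01068 and PDE_01064 belong to cluster 2 and the other 3 to cluster 28, all picked from all genes by r alone. The median r of deviations was 0.87 in both clusters, 0.78 in the pigment genes and 0.74 in cluster 1. In cluster 26 it was -0.48, but not every group ran that way. In Δfbx23 in VMMC the PKS gene PDE_09237 was lowest in replicate 1, at 166.15 FPKM, where brlA was lowest too. The deviations of the 3 libraries of a group sum to 0, and the VMMG groups, where brlA spread most, weigh most in these values.

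The gene of the C2H2 factor Ace1 (PDE_01988), which the study links to Fbx23, varied far less than brlA. Its group means lay between 90.4 and 150.6 FPKM, and its r with brlA over the 18 libraries was 0.29. That of fbx23 was 0.46.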

How the data were processed

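Total RNA of 18 mycelium libraries was profiled, and the authors deposited 1 table of FPKM values per gene and library (per the labels and the study's methods, mapped to the P. oxalicum genome). The aligner and genome version are not given in the sources used here. The labels describe a tag-based library and the methods RNA-Seq, which was not resolved. FPKM is already scaled for depth and length, so no count test was used. FPKM + 1 was log2-transformed, and genes averaging under 1 FPKM over the compared libraries were dropped. Then limma 3.58.1 in R 4.3.3 with an intensity trend was fitted to the 6 or 12 libraries of each comparison. A check on simulated data gave each gene the same spread in every group. The spread of brlA differed between groups, so nothing is read from that check for brlA. Log2 differences are on the log2(FPKM + 1) scale, which understates changes of low genes, and folds of brlA are ratios of mean FPKM. Single values were also tested by exact permutation in scipy 1.17.1. Replicate numbers were not paired. Named genes were brlA, fbx23, ace1 and cbh1 as context, the 6 pigment genes, cluster backbone genes, the 5 loci on each side, and the 10 most, 5 least and 5 most like in deviations, with exceptions named. The gene and the lists were chosen with earlier results of these data known. Alternatives were 2 pseudocounts, 2 filters, median-ratio scaling, 1 fit of all libraries, a replicate block, no trend and leaving out each library.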

Additional observations from a re-analysis of the deposited data

Results flagged for a closer look

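The effect on brlA of VMMC, which holds bran as well as cellulose, against VMMG differed between Refbx23 and WT. The log2 difference of the medium effects was -4.81 for Refbx23 minus WT, with an adjusted p of 1.12e-05 by limma. It was 2.46 for Δfbx23 minus WT and -7.27 for Refbx23 minus Δfbx23, both of which contain the Δfbx23 values in VMMG that were part of the choice of the locus. The test of Refbx23 minus WT uses the WT values in VMMG, which were part of that choice too. brlA was higher in VMMC in 3 of 3 WT and 3 of 3 Δfbx23 libraries than in any VMMG library of the same strain, and lower in 3 of 3 Refbx23 libraries.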

How the results depend on the processing

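Of 186 recomputed brlA differences, 182 were labelled the same. For Δfbx23 against WT in VMMG this meant a shift smaller than the pooled SD between libraries. For the rest it meant the same direction and side of the threshold, and no call is read for those with Δfbx23 in VMMG. Medium in Refbx23 became a called change with median-ratio scaling (-1.07). Leaving out each library in turn gave -1.24 to -0.78 for that difference, called without Refbx23 VMMG replicate 1. It gave -0.19 to 0.15 for Refbx23 against Δfbx23 in VMMC, with the sign turned without Δfbx23 VMMC replicate 2 (0.00086) or 3 (0.15). For the other differences it gave -3.20 to -2.42 (Δfbx23 against WT in VMMG), -0.57 to -0.24 (the same in VMMC), 4.08 to 4.83 (Refbx23 against WT in VMMG), -0.52 to -0.33 (in VMMC), 6.93 to 7.59 (Refbx23 against Δfbx23 in VMMG), 3.53 to 4.28 (medium in WT), 5.98 to 6.63 (medium in Δfbx23) and, for the differences of medium effects, 2.01 to 2.79, -5.25 to -4.50 and -7.60 to -6.95. A pseudocount of 0.1 moved the differences with the low Δfbx23 VMMG group most, to 7.92 against Refbx23. Same-numbered libraries did not deviate together (0 of 9 comparisons, r from -0.21 to 0.26), and a replicate block changed no call of brlA (4.39 with adjusted p 0.00137 for Refbx23 against WT in VMMG). Counts of all called genes stayed within 1.5 times in 126 of 126 cases, and 599 of 616 list counts did. Cluster 2 had 1 lower gene in VMMC, in place of 2, under 3 settings for Δfbx23 and 2 for Refbx23 against WT. With a filter at a mean of 5 FPKM, cluster 28 had 0 genes lower in Refbx23 against WT in VMMG and against Δfbx23 in VMMC, and cluster 1 had 0 higher in VMMC in WT. Pigment genes lower in Refbx23 in VMMC numbered 1 without VMMG replicate 2 or 3. The mean of brlA in Refbx23 in VMMC moved by more than its SD with median-ratio scaling, to 195.6 FPKM. Causes were not tested. FPKM gives no read counts, so the counting error of the lowest brlA values is unknown.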
